A study of Mus musculus with 60 samples.

Results

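Transcript levels of CL6G52, taken as its replicates 2 to 5, were compared with those of CL6G26, replicates 1 to 5. Both are sublines of P19CL6, a subclone of the mouse embryonal carcinoma line P19, and the labels describe the cells as undifferentiated, of strain C3H, male and of embryonic origin. Total RNA of each replicate was hybridised to a pair of Affymetrix arrays, MOE430A and MOE430B, so CL6G52 contributed 8 arrays and CL6G26 10, together 18 of the 60 in the series. All were grown in alpha-minimum essential medium with fetal calf serum, and no agent or allele sets the sublines apart in the labels. The titles call the replicates biological, but the labels do not say how the sublines were derived or whether each is a clone. They also do not say whether replicates came from separate cultures. The p-values rest on the spread between these samples alone, which may be technical. CL6G36, CL6G45 and P19CL6, with 5 replicates each, are used here for levels and for the estimate of the spread.

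The replicates were chosen by their measured profiles, and CL6G52 replicate 1 was left out for its own. With each probe set centred on its mean over the arrays of the fit, replicate 1 correlated at 0.32 with the CL6G45 mean and at -0.11 with the mean of CL6G52 replicates 2 to 5 over the probe sets tested on MOE430A. Each of CL6G52 replicates 2 to 5 correlated there at 0.30 to 0.40 with the mean of the others, and each CL6G26 array at 0.19 to 0.39 likewise. On MOE430B replicate 1 stood at 0.14 with CL6G45 and 0.03 with CL6G52. By the same measure CL6G52 replicates 2 to 5 stood there at only -0.003 to 0.095, and the CL6G26 arrays at -0.056 to 0.002. Replicate 1 is outside the centring mean and the other arrays are inside it, so the values are not fully alike. MOE430B sets replicate 1 nearest to CL6G45 and does not set it off from CL6G52 beyond the spread of the other arrays. These values chose the samples and were not tested; the spread within CL6G52 is that of the 4 replicates kept, and the counts are also given with replicate 1 added.

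Embryonal carcinoma cells are the stem cells of teratocarcinomas and resemble the pluripotent epiblast of the early embryo. In the embryo, Nodal, Wnt and FGF signals turn epiblast cells into the primitive streak, where E-cadherin is lost and mesoderm and endoderm form. P19CL6 is known as a line that readily forms cardiac muscle when induced. Because the arrays read RNA of whole cultures, fewer cells of a kind and less RNA per cell cannot be told apart.

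The levels are log2 signals after quantile normalization within an array type, and a difference is the CL6G52 mean minus the CL6G26 mean, so that -1 is 2-fold lower in CL6G52. A floor for dim signals was set at the 40th percentile of MOE430A, log2 4.61, and the 60th of MOE430B, log2 4.15. The ratio of the 3' to the 5' Gapdh probe sets, a sign of RNA integrity, ran from 0.781 to 0.856 in CL6G52 and from 0.829 to 0.883 in CL6G26 on MOE430A, and from 0.767 to 0.837 in CL6G52 and from 0.830 to 0.876 in CL6G26 on MOE430B. These ranges overlapped, on MOE430B only through CL6G52 replicate 4. The same ratio for beta-actin ran from 1.08 to 1.14 in CL6G52 and from 1.10 to 1.17 in CL6G26 on MOE430A. On MOE430B it ran from 1.09 to 1.14 in CL6G52 and from 1.09 to 1.38 in CL6G26. The part of these ratios in the results was not tested. The median deposited signal of an array ran from 36.4 to 45.1 in CL6G52 and from 35.3 to 53.35 in CL6G26 on MOE430A, and from 13.4 to 16.5 in CL6G52 and from 10.6 to 14.0 in CL6G26 on MOE430B. The comparison was chosen with 2 genes known to mark it, which are given without a test. Fst, which encodes follistatin, a secreted antagonist of activin, read 7.05, 7.14, 7.14 and 6.95 in CL6G52 replicates 2 to 5, against 9.26, 9.26, 9.27, 9.10 and 9.15 in CL6G26, a difference of -2.14. Snx7, a sorting nexin of endosomal trafficking, read 6.04, 6.14, 6.11 and 5.92 in CL6G52 replicates 2 to 5, against 8.45, 8.39, 8.18, 8.42 and 8.69 in CL6G26, a difference of -2.37. In CL6G52 replicate 1 they read 7.48 and 6.24, near the other CL6G52 arrays.

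Of 13166 genes tested, 140 (1.06%) were called, that is, they had a difference of at least 2-fold and an adjusted p (limma, Benjamini-Hochberg) below 0.05: 66 (0.501%) were higher in CL6G52 and 74 (0.562%) lower. By adjusted p alone 1099 genes passed (8.35%), 526 higher (4.0%) and 573 lower (4.35%). Of all genes, 11.3% had no overlap between the 4 and the 5 arrays, and 121 of the 140 called were among them. Only 45 of the 140 lay above the floor on all 9 arrays, while 26 lay under it on every CL6G52 array alone, 23 on every CL6G26 array alone and 2 on all 9. With all 5 CL6G52 replicates, 109 of the 140 still passed and 93 were still called; the count over all genes was then 101. Under the deposited scaling the calls were split differently, with 129 higher and 53 lower, and by adjusted p alone 581 were higher and 97 lower. The median difference over all probe sets tested was then -0.08 on MOE430A and 0.35 on MOE430B, where it was 0.00 on both after quantile normalization. The plot of the difference against signal shows calls over a wide range of signal, with the largest differences among dim genes apart from Adarb1.

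**Figure D1:**
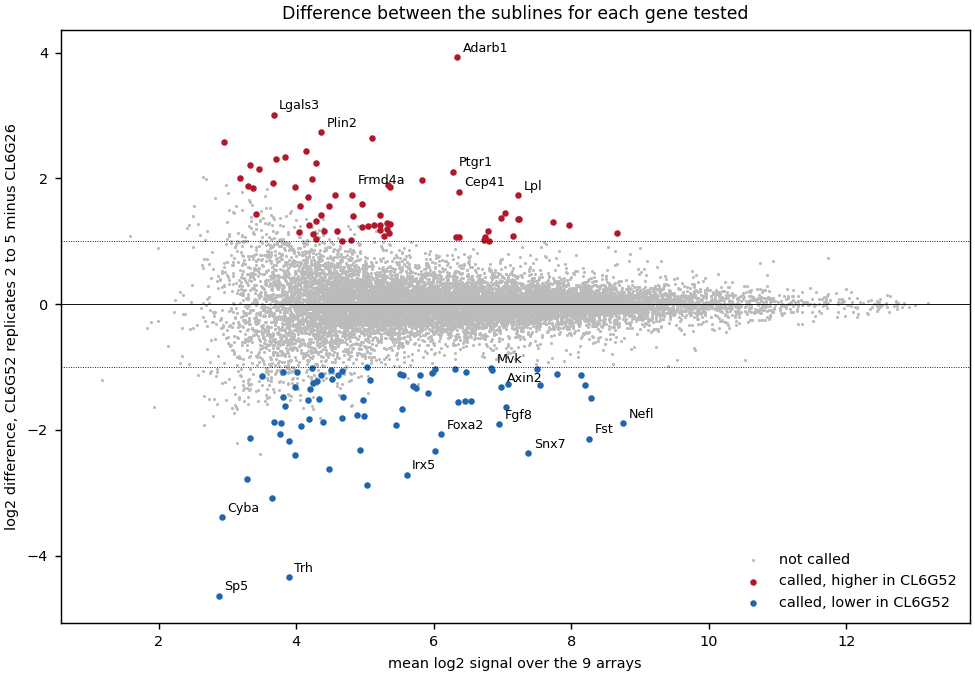
Each point is 1 of the 13166 genes tested, with its mean log2 signal over the 9 arrays on the horizontal axis and the log2 difference, CL6G52 replicates 2 to 5 minus CL6G26, on the vertical axis. Red points are the 66 genes called higher in CL6G52, blue points the 74 called lower, and dotted lines mark 2-fold; among the labelled genes Adarb1 stands highest at 3.93 and Sp5 lowest at -4.64.

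Genes of the primitive streak and mesendoderm were lower in CL6G52. Of 15 list members measured, 8 passed lower and 0 higher, where 4.35% of all genes passed lower, and the median difference was -1.28, against 0.00 over all genes. The listed streak genes T, Wnt3, Cdx1 and Sox17 were not among those measured. With all 5 CL6G52 replicates 9 members passed lower, and with the deposited scaling 6. Several members were dim: with signals raised to the floor 6 passed lower and the median was -0.34. Foxa2, a forkhead factor of node and endoderm, read 5.04, 4.74, 5.0 and 5.04 in CL6G52 replicates 2 to 5, against 7.07, 6.91, 7.28, 6.97 and 6.87 in CL6G26. The groups lay about 2 log2 units apart with no overlap, a difference of -2.06 ± 0.15 (SE, adjusted p = 2.75e-10). Fgf8, a growth factor made by the streak, read 5.92, 5.72, 5.61 and 6.32 in CL6G52 replicates 2 to 5, against 7.98, 7.98, 7.82, 7.62 and 7.59 in CL6G26, a difference of -1.91 ± 0.16 (SE, adjusted p = 3.73e-09). Eomes, the T-box factor that starts mesendoderm formation, read 7.52, 7.70, 7.43 and 7.27 in CL6G52 replicates 2 to 5, against 8.85, 8.64, 8.82, 8.77 and 8.72 in CL6G26, a difference of -1.28 ± 0.12 (SE, adjusted p = 1.34e-08). In each of these 3 genes every CL6G52 array lay below every CL6G26 array, and replicate 1, at 5.21, 6.32 and 8.20, lay below every CL6G26 array as well, though nearer to the CL6G26 mean for Eomes. A second probe set of Eomes on MOE430A differed by -1.71.

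Other streak genes were dimmer. Gsc, goosecoid, a homeobox gene of the organizer, read 4.69, 4.12, 4.82 and 2.0 in CL6G52 replicates 2 to 5, against 5.49, 6.05, 5.30, 5.73 and 5.77 in CL6G26, with 2 of the 4 CL6G52 arrays under the floor and replicate 1 at 5.86, among the CL6G26 arrays. Its difference was -1.76 ± 0.35 (SE, adjusted p = 0.00108), and -1.37 with replicate 1 added (adjusted p = 0.0276). Mixl1, a homeobox gene of mesendoderm, differed by -1.10 (adjusted p = 3.07e-04). Lhx1, a homeobox gene of axial mesoderm and node, averaged 1.74 ± 0.62 in CL6G52 and 4.52 ± 0.25 in CL6G26 (SD), all but 1 array under the floor, and did not pass in 4 of 21 alternatives, among them the one without CL6G52 replicate 5. Nkx1-2, of the caudal epiblast, was under the floor on all 4 CL6G52 arrays and above it on all 5 CL6G26 arrays, at least 1.26-fold lower (adjusted p = 0.0191). Cdx2, Evx1, Wnt3a and Tbx6, each under the floor on arrays of both sublines, did not pass, and neither did Mesp1 and Mesp2, of early mesoderm, at -0.11 and -0.02.

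Of 20 Nodal signalling genes measured, 6 passed lower and 0 higher, Fst among the 6. Of all 20 differences 7 were positive, and the median was -0.18; with all 5 CL6G52 replicates 6 passed lower and 1 higher. Nodal, the ligand that patterns the epiblast, read 9.54, 9.22, 9.47 and 9.34 in CL6G52 replicates 2 to 5, against 10.10, 10.30, 10.0, 10.05 and 10.15 in CL6G26, and Tdgf1, or Cripto, its co-receptor, read 9.09, 8.98, 9.10 and 9.04 in CL6G52 replicates 2 to 5, against 9.96, 10.03, 9.80, 10.01 and 9.86 in CL6G26. Neither gene overlapped between the sublines, and the differences were -0.72 ± 0.09 (SE, adjusted p = 2.26e-06) and -0.88 ± 0.07 (SE, adjusted p = 4.07e-10). The ligand Tgfb1 differed by -0.81 (adjusted p = 6.66e-04), the feedback inhibitor Pmepa1 by -0.55 (adjusted p = 0.00601) and Gdf3, a ligand of the same family, by -0.35 (adjusted p = 0.00287); the sixth member is Fst, which chose the comparison. Under the deposited scaling Gdf3 and Pmepa1 did not pass, at adjusted p = 0.246 and 0.193. The antagonist Lefty1, at -0.23, and the receptors and Smads of the list did not pass. The listed genes Lefty2, Cer1, Inhba and Tgfb2 were not among those measured.

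Of 17 measured genes of the Wnt list, 2 passed lower and 1 higher, also with all 5 CL6G52 replicates and with the deposited scaling. Axin2, a negative regulator induced by Wnt signals in many tissues, read 6.15, 6.25, 6.27 and 6.31 in CL6G52 replicates 2 to 5, against 7.51, 7.61, 7.50, 7.61 and 7.61 in CL6G26, with replicate 1 at 6.45. The CL6G52 arrays spanned less than 0.2 log2 units and stood clear of CL6G26, a difference of -1.32 ± 0.12 (SE, adjusted p = 8.63e-09). Sp5, a zinc finger gene and direct target of Wnt signals, lay under the floor on all 4 CL6G52 arrays, between 0.0 and 0.68, and above it on 4 of 5 CL6G26 arrays, at 5.21, 5.32, 4.84, 5.01 and 4.32. It was at least 1.25-fold lower in CL6G52 (adjusted p = 6.78e-06), and with signals raised to the floor the difference shrank to -0.38 (adjusted p = 0.359). Sfrp1, a secreted Wnt antagonist, read 6.13, 6.58, 6.21 and 6.59 in CL6G52 replicates 2 to 5, against 4.72, 4.71, 4.61, 4.33 and 4.05 in CL6G26, a difference of 1.90 ± 0.18 (SE, adjusted p = 3.66e-08). Its 5 CL6G26 arrays lay about the floor and its 4 CL6G52 arrays above them. The Wnt ligands Wnt7a, whose values are given with the largest differences, and Wnt11, at -1.27 (adjusted p = 5.45e-09), were not on the list and were lower as well.

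The RefSeq promoters of both lower Wnt targets, from 250 bases before to 50 bases after the gene start on build GRCm38.p6, are shown because TCF factors act on such genes. The motif searched, on both strands, was CTTTGAA or CTTTGAT, and it is in capitals. The Sp5 window is chr2:70474673-70474972 (+ strand) and holds 1 match, starting 104 bases before the start, while that of Axin2, chr11:108920099-108920398 (+ strand), holds none. Of all 27025 genes with a promoter entry 9.88% held the motif, and of the 10 Wnt list members with an entry 1 did.
Sp5: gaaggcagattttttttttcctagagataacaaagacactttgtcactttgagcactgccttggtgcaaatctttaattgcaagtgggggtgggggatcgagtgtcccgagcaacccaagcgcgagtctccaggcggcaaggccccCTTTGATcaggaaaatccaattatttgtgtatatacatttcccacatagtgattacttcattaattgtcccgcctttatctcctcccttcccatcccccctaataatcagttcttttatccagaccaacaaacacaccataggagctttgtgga
Axin2: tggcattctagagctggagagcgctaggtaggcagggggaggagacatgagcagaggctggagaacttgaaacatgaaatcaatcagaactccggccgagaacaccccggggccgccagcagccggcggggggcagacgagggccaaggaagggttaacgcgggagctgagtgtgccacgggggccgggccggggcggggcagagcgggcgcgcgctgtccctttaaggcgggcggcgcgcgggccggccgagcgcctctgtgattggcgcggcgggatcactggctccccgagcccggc

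**Figure D2:**
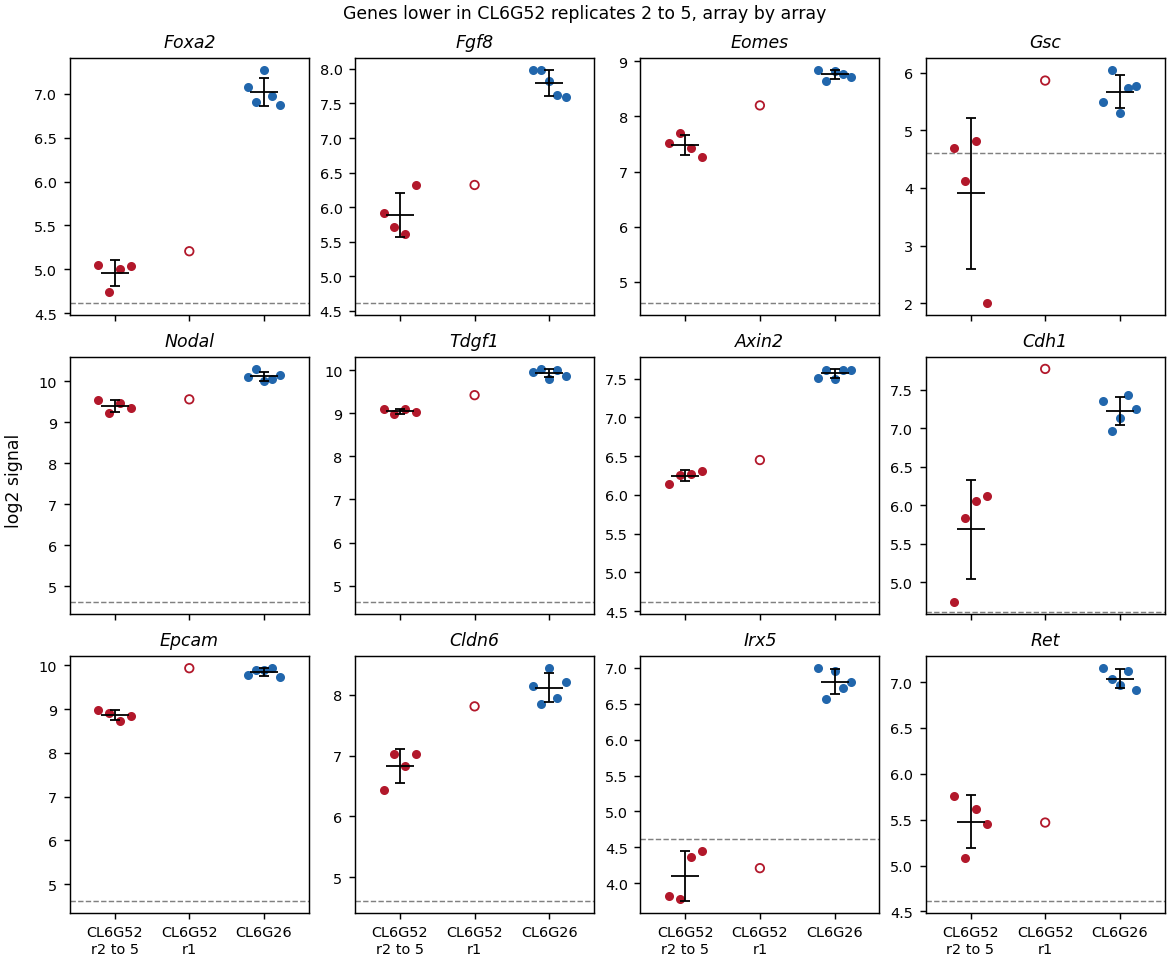
Log2 signals of 12 genes lower in CL6G52, with 1 point per array: CL6G52 replicates 2 to 5 (red), CL6G52 replicate 1 (open circle) and CL6G26 (blue). Bars are the mean ± SD over 4 and 5 arrays and the dashed line is the floor of 4.61; replicate 1 lies with the other CL6G52 arrays for Foxa2, Axin2, Irx5 and Ret and with CL6G26 for Gsc, Cdh1 and Epcam.

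Several epithelial genes were lower in CL6G52 replicates 2 to 5, and here replicate 1 stood apart. Of 14 measured, 5 passed lower and 0 higher, where 4.35% of all genes passed lower. Of the 14 differences 9 were negative and 5 positive, with a median of -0.30. With all 5 CL6G52 replicates 4 passed lower, and with the deposited scaling 3. Cdh1, E-cadherin, read 4.74, 5.83, 6.06 and 6.12 in CL6G52 replicates 2 to 5, against 7.35, 6.96, 7.13, 7.43 and 7.26 in CL6G26. Epcam, an adhesion protein of epithelia and pluripotent cells, read 8.97, 8.91, 8.72 and 8.85 in CL6G52 replicates 2 to 5, against 9.77, 9.90, 9.88, 9.95 and 9.74 in CL6G26. Cldn6, a tight junction claudin of early epithelia, read 6.43, 7.02, 6.83 and 7.03 in CL6G52 replicates 2 to 5, against 8.14, 7.85, 8.44, 7.94 and 8.21 in CL6G26. All 3 genes separated the groups without overlap, by -1.54 ± 0.22 (SE, adjusted p = 1.82e-05), -0.99 ± 0.07 (SE, adjusted p = 3.27e-10) and -1.29 ± 0.13 (SE, adjusted p = 3.71e-08). Replicate 1 read 7.77 for Cdh1, 9.93 for Epcam and 7.81 for Cldn6. Those of Cdh1 and Epcam are above the CL6G26 mean, and with replicate 1 added the differences were -1.12 (adjusted p = 0.0218), -0.77 (4.71e-04) and -1.09 (3.77e-05). The keratin Krt18 differed by -0.44 (adjusted p = 0.00701), which did not pass under the deposited scaling, and the splicing factor Esrp1 passed with both sublines under the floor, so no change is read from it.

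On the mesenchymal side, 3 of 10 measured fibroblast and mesenchyme genes passed higher and 0 lower, where 4.0% of all genes passed higher. Of the 10 differences 6 were positive and 4 negative, with a median of 0.14. Vim, the intermediate filament vimentin, differed by 0.36 (adjusted p = 0.0127), Zeb1, a repressor of E-cadherin, by 0.45 (adjusted p = 0.00241), and Cdh2, N-cadherin, by 0.50 (adjusted p = 0.00230). Replicate 1 lay nearer to CL6G52 for all 3, and under the deposited scaling none of the 3 passed. Over the 19 markers listed, the summed linear signal was 2232 to 2479 in CL6G52 and 1900 to 2105 in CL6G26. In each subline 8 markers lay above the floor on all arrays, and 10, among them the fibroblast collagens Col1a1 and Col3a1 and the factors Twist1 and Prrx1, lay under it on all 9. The 17 epithelial markers summed to 2135 to 2198 in CL6G52 and 2970 to 3061 in CL6G26, with Cldn4, Krt19, Esrp1, Ocln and Rab25 under the floor on all 9 arrays. The part of such cells in the results was not tested.

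Among further genes above the floor on all 9 arrays, the neurofilament gene Nefl read 7.73, 7.66, 7.57 and 7.83 in CL6G52 replicates 2 to 5, against 9.77, 9.52, 9.62, 9.50 and 9.54 in CL6G26, a difference of -1.89 ± 0.10 (SE, adjusted p = 7.53e-13). Epha1, an Eph receptor, read 6.34, 6.13, 5.94 and 6.15 in CL6G52 replicates 2 to 5, against 7.78, 7.77, 7.82, 7.70 and 7.82 in CL6G26, a difference of -1.64 ± 0.12 (SE, adjusted p = 3.27e-10). Wnt7a, a Wnt ligand, read 5.28, 5.68, 5.81 and 5.62 in CL6G52 replicates 2 to 5, against 7.26, 7.13, 7.14, 6.99 and 7.14 in CL6G26, a difference of -1.53 ± 0.11 (SE, adjusted p = 3.27e-10). The groups were apart by at least 1 log2 unit between nearest arrays in all 3 genes. A MOE430B probe set of Wnt7a differed by -0.21 and did not pass. Upp1, a uridine phosphorylase, differed by -1.50 ± 0.12 (SE, adjusted p = 2.40e-09) and Ephx2, soluble epoxide hydrolase, by -1.42 ± 0.13 (SE, adjusted p = 2.01e-08). Ret, the receptor tyrosine kinase for GDNF family ligands, read 5.76, 5.08, 5.62 and 5.46 in CL6G52 replicates 2 to 5, against 7.16, 7.03, 6.96, 7.12 and 6.92 in CL6G26, a difference of -1.56 ± 0.17 (SE, adjusted p = 2.25e-07). No other member of the Ret and GDNF list of 7 measured passed, and replicate 1 of CL6G52, at 5.47, lay among its sister arrays.

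Genes above the floor on all CL6G26 arrays and on 0 CL6G52 arrays have a bound in CL6G52. Irx5, an Iroquois homeobox factor, read 3.82, 3.77, 4.36 and 4.44 in CL6G52, all under the floor, against 7.0, 6.56, 6.95, 6.73 and 6.81 in CL6G26, and was at least 4.59-fold lower (adjusted p = 5.06e-08). The spalt-like gene Sall3 was at least 3.24-fold lower (adjusted p = 4.47e-06). Trh, the precursor of thyrotropin-releasing hormone, was at least 2.31-fold lower (adjusted p = 2.95e-11), but replicate 1 of CL6G52 read 5.95, at the level of CL6G26. Dhx38, a splicing helicase, was bounded at 2.04-fold (adjusted p = 6.02e-04). Hacl1, a peroxisomal lyase of fatty acid oxidation, was bounded at 1.30-fold (adjusted p = 3.46e-04), a call lost with signals raised to the floor, and replicate 1 read 5.45, above every CL6G26 array. The MOE430B probe sets of Sall3 and Dhx38 were dim, with mean signals of 3.51 and 4.34 over the arrays, and did not pass.

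Among the genes higher in CL6G52 by the largest differences were Ptgr1 and Lpl. Ptgr1, a prostaglandin reductase, read 7.52, 7.41, 7.51 and 7.37 in CL6G52 replicates 2 to 5, against 5.16, 5.48, 5.30, 5.44 and 5.34 in CL6G26, a difference of 2.11 ± 0.12 (SE, adjusted p = 3.13e-12). Lpl, lipoprotein lipase, read 7.96, 8.24, 8.30 and 8.25 in CL6G52 replicates 2 to 5, against 6.21, 6.68, 6.34, 6.51 and 6.53 in CL6G26, a difference of 1.74 ± 0.10 (SE, adjusted p = 1.16e-12). For both genes CL6G52 lay at least 1 log2 unit above CL6G26 on every array, and replicate 1 read 6.27 and 7.32, between the sublines. Plin2, which coats lipid droplets, lay above the floor on all 4 CL6G52 arrays, at 5.92, 5.62, 6.02 and 5.95, and under it on all 5 CL6G26 arrays, at least 2.40-fold higher (adjusted p = 5.45e-08). Fabp5, a fatty acid carrier, differed by 0.69 (adjusted p = 3.85e-07). In the lipid droplet, lipase and lipid carrier list, Plin2, Lpl and Fabp5 were the 3 of 16 measured that passed higher, and 3 passed lower, Cpt1a of mitochondrial fatty acid import at -0.87, Apoe at -0.63 and Vldlr at -0.62. Apoe did not pass without CL6G52 replicate 3, nor Vldlr without CL6G52 replicate 2 or 5 or CL6G26 replicate 1 or 2, and neither passed with CL6G52 replicate 1 added.

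Prps2, which makes the ribose precursor of nucleotides, read 8.44, 8.47, 8.38 and 8.54 in CL6G52 replicates 2 to 5, against 7.13, 7.05, 7.40, 7.06 and 7.15 in CL6G26, a difference of 1.30 ± 0.12 (SE, adjusted p = 1.87e-08). Pgm2, of the phosphoglucomutase family, read 8.13, 8.04, 8.03 and 7.72 in CL6G52 replicates 2 to 5, against 6.53, 6.62, 6.87, 6.63 and 6.44 in CL6G26, a difference of 1.36 ± 0.10 (SE, adjusted p = 3.04e-10). Each of these CL6G52 arrays lay above all CL6G26 arrays, but replicate 1 read 7.05 and 7.07, nearer to CL6G26. Frmd4a, a scaffold protein of cell polarity, differed by 1.98 ± 0.19 (SE, adjusted p = 6.10e-08), Col5a2, a chain of fibrillar collagen, by 1.45 ± 0.09 (SE, adjusted p = 1.55e-11), and Cep41, a centrosomal protein, by 1.79 ± 0.14 (SE, adjusted p = 7.94e-10). A MOE430B probe set of Cep41 differed by 1.97. Myrf, a membrane-bound factor of myelin genes, differed by 1.37 (adjusted p = 2.37e-05), Pgap1, a GPI anchor remodelling enzyme, by 1.36 (adjusted p = 7.39e-07), and the zinc finger gene Zfp518a by 1.29 (adjusted p = 1.94e-04).

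Above the floor on all CL6G52 arrays and on 0 CL6G26 arrays were also Spon1, an extracellular matrix protein, at least 1.87-fold higher (adjusted p = 4.73e-05), Apobec1, the cytidine deaminase that edits apolipoprotein B mRNA, at least 1.66-fold higher (8.14e-05), and Acyp2, an acylphosphatase, at least 1.43-fold higher (1.72e-04). Lgals3, galectin-3, a lectin of cell surface and cytosol, was at least 1.66-fold higher (2.20e-04), at 5.58, 5.32, 5.33 and 5.14 in CL6G52 and under the floor on every CL6G26 array. Its replicate 1 value of 4.28 was under the floor. With replicate 1 added to the fit, each gene described from Nefl to Lgals3 still passed, except Apoe and Vldlr.

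Actin-binding and contractile muscle genes were higher in CL6G52. Of 13 measured members, 8 passed higher and 0 lower, where 4.0% of all genes passed higher, and all 13 differences were positive, with a median of 0.52. Tagln, transgelin, a marker of smooth muscle, read 6.18, 6.54, 6.36 and 6.49 in CL6G52 replicates 2 to 5, against 4.91, 4.62, 4.31, 3.98 and 4.86 in CL6G26, a difference of 1.86 ± 0.25 (SE, adjusted p = 1.08e-05). Cald1, caldesmon, which regulates actomyosin, read 9.37, 9.26, 9.29 and 9.29 in CL6G52 replicates 2 to 5, against 8.29, 8.21, 7.90, 8.13 and 8.30 in CL6G26, a difference of 1.14 ± 0.10 (SE, adjusted p = 4.29e-09). Neither gene overlapped between the groups; replicate 1, at 4.96 and 8.33, was nearer to CL6G26. The tropomyosins Tpm1 and Tpm2 differed by 0.68 (adjusted p = 3.00e-07) and 0.53 (adjusted p = 0.00764), smooth muscle actin Acta2 by 0.52 (adjusted p = 0.00707), and Cnn2 and Tagln2 by 0.48 and 0.39. Cnn1, calponin, passed at an adjusted p of 0.00116 but lay under the floor on all CL6G26 arrays and 1 CL6G52 array, so no fold is given.

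With all 5 CL6G52 replicates 8 muscle genes passed higher, and with the deposited scaling 3. Tpm2 did not pass without CL6G52 replicate 3. Of the cardiac genes of the list, Actc1 at 0.18 did not pass, and Tnnt2, Myh6 and Myl7 lay under the floor on all 9 arrays. The 20 muscle markers summed to 3512 to 3787 in CL6G52 and 2463 to 2590 in CL6G26 on the linear scale. Of 11 cardiac transcription factor genes, Srf, a factor that acts on muscle and cytoskeletal genes, differed by 0.47 (adjusted p = 0.00476) and Hopx by 0.47 (adjusted p = 0.0272), while Gata4, Nkx2-5 and Tbx5, at -0.05, -0.26 and -0.30, did not pass. Hopx did not pass without CL6G52 replicate 2, 4 or 5 or CL6G26 replicate 1 or 2, with replicate 1 of CL6G52 added, or under the deposited scaling, where Srf did not pass either.

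Targets of the tumour suppressor p53 were higher in CL6G52 replicates 2 to 5, but not in replicate 1. Of 14 measured, 9 passed higher and 0 lower, all 14 differences were positive and the median was 0.44. Trp53inp1, a stress protein induced by p53, read 8.18, 8.07, 8.21 and 8.18 in CL6G52 replicates 2 to 5, against 7.34, 7.17, 7.12, 7.13 and 7.22 in CL6G26. Phlda3, a p53-induced repressor of Akt, read 8.50, 8.45, 8.46 and 8.62 in CL6G52 replicates 2 to 5, against 7.84, 7.78, 7.63, 7.63 and 7.76 in CL6G26. Ccng1, cyclin G1, read 9.62, 9.81, 9.69 and 9.61 in CL6G52 replicates 2 to 5, against 9.14, 8.84, 8.90, 9.09 and 8.98 in CL6G26. In these genes the groups lay apart without overlap, by 0.96 ± 0.24 (SE, adjusted p = 0.00983), 0.78 ± 0.14 (SE, adjusted p = 4.73e-04) and 0.69 ± 0.11 (SE, adjusted p = 5.36e-05). The ubiquitin ligase Mdm2, which restrains p53, differed by 0.58 (adjusted p = 0.00219), Perp by 0.60 (adjusted p = 0.00585), the kinase Plk2 by 1.07 (adjusted p = 8.37e-04) and the cell cycle inhibitor Cdkn1a, or p21, by 0.49 (adjusted p = 0.0379). A dim MOE430B probe set of Plk2 differed by -0.92 and did not pass.

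Replicate 1 read 6.46 for Trp53inp1, 7.18 for Phlda3 and 8.58 for Ccng1, below every CL6G26 array. For all 9 genes it lay nearer to CL6G26 than to CL6G52, and for 8 it was below the CL6G26 mean. With it added, 2 of 14 passed higher, Mdm2 and Perp, and the median was 0.36. Under the deposited scaling 0 of 14 passed in limma (6 at an unadjusted p under 0.05) and the median was 0.35.

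Enzymes of sterol synthesis were lower. Of 22 genes of sterol and fatty acid synthesis measured, 12 passed lower and 1 higher, with a median of -0.32. Mvk, mevalonate kinase, read 6.19, 6.52, 5.91 and 6.44 in CL6G52 replicates 2 to 5, against 7.19, 7.16, 7.54, 7.20 and 7.33 in CL6G26. Lss, lanosterol synthase, read 7.69, 7.76, 7.59 and 7.65 in CL6G52 replicates 2 to 5, against 8.60, 8.63, 8.66, 8.15 and 8.09 in CL6G26. Fdft1, squalene synthase, read 7.67, 7.41, 7.61 and 7.41 in CL6G52 replicates 2 to 5, against 8.39, 8.15, 8.36, 8.17 and 8.19 in CL6G26. No array of one subline reached the range of the other in these 3 genes, and the differences were -1.02 ± 0.12 (SE, adjusted p = 6.42e-07), -0.76 ± 0.12 (SE, adjusted p = 5.14e-05) and -0.73 ± 0.09 (SE, adjusted p = 9.57e-07). Pmvk and Mvd, the next steps of the mevalonate pathway, differed by -0.75 (adjusted p = 7.83e-05) and -0.65 (adjusted p = 1.49e-04), Dhcr7, the last step to cholesterol, by -0.48 (adjusted p = 0.00358) and Fdps, farnesyl diphosphate synthase, by -0.45 (adjusted p = 7.53e-05). Hmgcs1 at -0.07, Insig1 at -0.32 and the fatty acid synthase gene Fasn at -0.04 did not pass. The desaturase Scd1 was the 1 member higher, by 0.63 (adjusted p = 1.14e-07).

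Replicate 1 was nearer to CL6G26 for 11 of these 12 genes. It read 7.36 for Mvk, 8.62 for Lss and 8.09 for Fdft1, within or near the CL6G26 range. With it added 8 of 22 passed lower, with a median of -0.22, and with the deposited scaling 5 did, with a median of -0.43. With the mean of its probe sets Fdft1 no longer passed.

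The promoters of 3 sterol genes are shown with the CCAAT box, the motif of the factor NF-Y, in capitals, on either strand (CCAAT or ATTGG), since NF-Y is known to act beside the sterol-regulated factor SREBP on genes of this pathway. Their RefSeq windows on GRCm38.p6 are chr5:114444019-114444318 (+ strand) for Mvk, chr10:76531355-76531654 (+ strand) for Lss and chr8:122443373-122443672 (- strand) for Mvd. Mvk held 5 matches, Lss 1 and Mvd 2. All 8 of the lower sterol genes with a promoter entry held the motif, as did 14 of the 16 list members with an entry, against 41.1% of all genes. The motif was as common in lists that were mostly without calls, in 17 of 18 unfolded protein response genes and 8 of 9 MHC genes with an entry. The exact sterol response element, a motif of SREBP, was in 0 of the 16 windows and in 0.0999% of all genes. Of motifs searched for other lists, the ATF4 element was in 0 of 14 ATF4 and CHOP genes, against 0.222% of all genes. It was in 2 of 10 aminoacyl-tRNA synthetase genes with an entry, and in 1 of the 4 that passed lower. The CArG box was in 3 of 12 muscle genes (1.81% of all genes), but in only 1 of the 7 that passed higher.
Mvk: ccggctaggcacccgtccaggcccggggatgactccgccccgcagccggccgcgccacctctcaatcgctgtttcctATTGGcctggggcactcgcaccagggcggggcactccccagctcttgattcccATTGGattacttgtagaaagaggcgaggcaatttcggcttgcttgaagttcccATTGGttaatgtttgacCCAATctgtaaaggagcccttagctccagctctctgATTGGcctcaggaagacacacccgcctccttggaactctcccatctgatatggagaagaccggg
Lss: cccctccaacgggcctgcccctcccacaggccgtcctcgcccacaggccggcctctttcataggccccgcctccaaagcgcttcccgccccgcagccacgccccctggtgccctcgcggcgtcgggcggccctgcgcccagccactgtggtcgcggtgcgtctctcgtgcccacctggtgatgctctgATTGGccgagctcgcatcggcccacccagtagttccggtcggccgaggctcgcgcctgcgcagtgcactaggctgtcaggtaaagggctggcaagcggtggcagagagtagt
Mvd: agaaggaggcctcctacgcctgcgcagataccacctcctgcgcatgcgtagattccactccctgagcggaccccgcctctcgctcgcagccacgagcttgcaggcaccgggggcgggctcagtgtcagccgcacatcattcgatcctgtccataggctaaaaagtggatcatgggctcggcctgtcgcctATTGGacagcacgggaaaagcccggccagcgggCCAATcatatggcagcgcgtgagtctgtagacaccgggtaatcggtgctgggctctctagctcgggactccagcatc

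**Figure D3:**
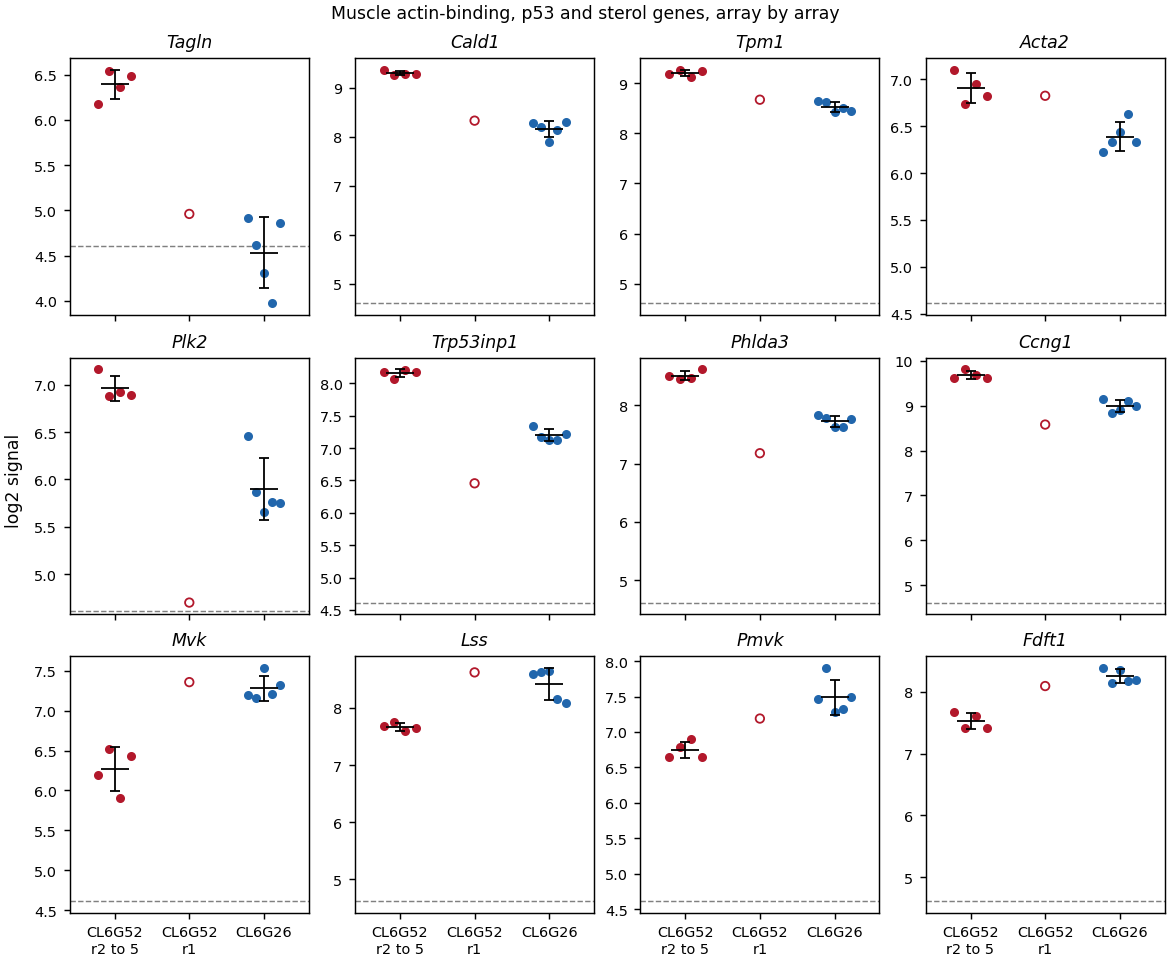
Log2 signals of 4 muscle, 4 p53 and 4 sterol genes, with 1 point per array: CL6G52 replicates 2 to 5 (red), CL6G52 replicate 1 (open circle) and CL6G26 (blue). Bars are the mean ± SD and the dashed line is the floor; the red and blue points do not overlap in any panel, and the open circle lies below the blue points for the 4 p53 genes.

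Genes of the ATF4 and CHOP stress response, induced when amino acids are short or proteins misfold, were lower in CL6G52 replicates 2 to 5, with 8 of 16 measured passing lower, 0 higher and a median of -0.38. Trib3, a stress-induced pseudokinase, read 6.67, 6.73, 6.50 and 6.49 in CL6G52 replicates 2 to 5, against 7.63, 7.28, 7.54, 7.36 and 7.36 in CL6G26, and Chac1, which degrades glutathione, read 8.30, 7.98, 8.16 and 7.84 in CL6G52 replicates 2 to 5, against 9.52, 9.23, 9.01, 8.90 and 8.44 in CL6G26. In both genes the groups were separate, by -0.83 ± 0.19 (SE, adjusted p = 0.00487) and -0.95 ± 0.24 (SE, adjusted p = 0.0100). Slc7a11, the cystine transporter, differed by -0.89 (adjusted p = 0.00468) and the factors Atf3 and Atf4 by -0.78 (adjusted p = 0.0198) and -0.30 (adjusted p = 0.0135). Replicate 1, at 8.42 for Trib3 and 6.87 for Atf3, exceeded the CL6G26 mean for all 8 genes. Atf3 did not pass without CL6G52 replicate 2 or CL6G26 replicate 1. With CL6G52 replicate 1 added 0 of 16 passed in limma (2 at an unadjusted p under 0.05), and under the deposited scaling 0 did (9 unadjusted). Similarly, 6 of 17 aminoacyl-tRNA synthetase genes passed lower (Yars -0.54, Aars -0.41) and 1 higher (Rars 0.23), and 5 of 18 glycolysis genes passed lower (Pdk1 -0.62, Aldoc -0.58) and 1 higher (Slc2a3 0.26). With replicate 1 added those counts of lower genes were 3 and 1, and under the deposited scaling they were 0 (6 at an unadjusted p under 0.05) and 1.

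**Figure D4:**
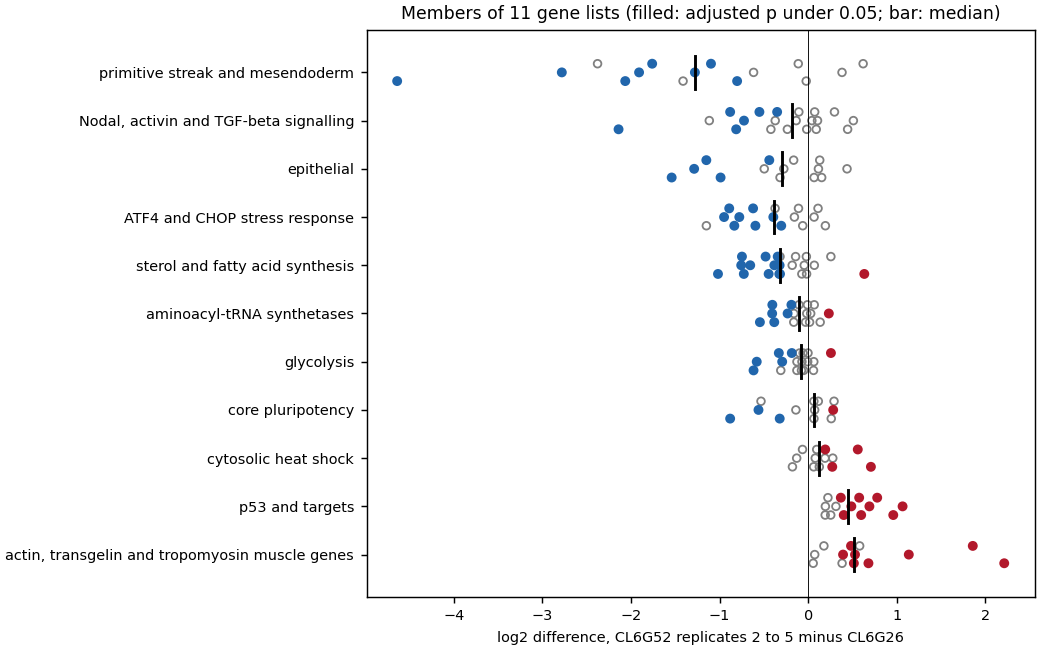
Each point is 1 measured member of 11 gene lists, at its log2 difference, CL6G52 replicates 2 to 5 minus CL6G26. Filled points passed an adjusted p of 0.05 (red higher, blue lower in CL6G52), open points did not, and the black bar is the median of the list, which runs from -1.28 for the primitive streak list to 0.52 for the muscle list.

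Among the pluripotency factors, Pou5f1 and Nanog were lower and Sox2 did not pass. Pou5f1, Oct4, read 11.18, 11.24, 11.13 and 11.15 in CL6G52 replicates 2 to 5, against 11.44, 11.61, 11.53, 11.40 and 11.51 in CL6G26, and Nanog read 8.08, 8.28, 8.19 and 8.22 in CL6G52 replicates 2 to 5, against 8.87, 8.77, 8.67, 8.78 and 8.68 in CL6G26. The CL6G52 arrays were lower for both, with differences of -0.32 ± 0.05 (SE, adjusted p = 3.81e-05) and -0.56 ± 0.12 (SE, adjusted p = 0.00193), and under the deposited scaling neither passed, at adjusted p = 0.105 and 0.105. Sox2, at 8.72 ± 0.15 in CL6G52 and 8.60 ± 0.18 in CL6G26 (SD), overlapped, with a difference of 0.11 (adjusted p = 0.660). Of 12 core pluripotency genes measured 3 passed lower and 1 higher, Zfp281 at 0.28, and the summed signal of 13 core genes overlapped, at 10774 to 11727 in CL6G52 and 10808 to 11947 in CL6G26. Zfp281 did not pass without CL6G52 replicate 2 or 3 or CL6G26 replicate 3 or 5. Of 10 naive pluripotency genes 0 passed in limma, and 1 had an unadjusted p under 0.05.

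Of 13 primed epiblast genes, 5 passed lower, Otx2 at -0.34 and Dnmt3b at -0.21 beside Cldn6, Nodal and Fst, the last of which chose the comparison, and 2 passed higher. Dnmt3b did not pass without CL6G52 replicate 3 or with replicate 1 added. Pou3f1, Oct6, a POU factor of epiblast and neural lineage, read 5.83, 6.0, 6.22 and 5.88 in CL6G52 replicates 2 to 5, against 4.35, 4.79, 5.15, 5.0 and 4.66 in CL6G26, a difference of 1.19 ± 0.19 (SE, adjusted p = 7.19e-05). Dnmt3a, a de novo DNA methyltransferase, read 9.34, 9.29, 9.29 and 9.27 in CL6G52 replicates 2 to 5, against 8.13, 8.54, 8.72, 8.41 and 8.74 in CL6G26, a difference of 0.79 ± 0.13 (SE, adjusted p = 1.26e-04), which did not pass under the deposited scaling. Both sets of CL6G52 arrays lay above all CL6G26 arrays, and replicate 1, at 5.28 and 9.41, did as well. Further MOE430A probe sets of Dnmt3a differed less, by 0.63, 0.55, 0.33 and 0.08, and the last did not pass.

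Smaller lists held single genes with large differences. Cyp26a1, the enzyme that degrades retinoic acid, averaged 4.0 ± 1.06 in CL6G52 and 5.78 ± 0.09 in CL6G26 (SD), a difference of -1.78 (adjusted p = 0.00235), with 2 of 4 CL6G52 arrays under the floor. Crabp2, which carries retinoic acid to its receptors, differed by 1.07 (adjusted p = 4.14e-05). The other 9 genes of the retinoic acid list measured did not pass. Of 14 Hippo pathway genes, Amot, an angiomotin scaffold, read 8.06, 8.15, 8.17 and 8.17 in CL6G52 replicates 2 to 5, against 9.07, 9.05, 8.89, 8.81 and 8.88 in CL6G26, a difference of -0.80 ± 0.10 (SE, adjusted p = 1.93e-06), lost with the mean of its probe sets, while its relatives Amotl1 and Amotl2 were higher by 0.39 and 0.50. Amotl2 did not pass without CL6G52 replicate 2 or 3.

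Of 21 imprinted genes measured, 4 passed higher and 1 lower. Mest, expressed from the paternal allele, read 10.09, 10.01, 9.98 and 10.05 in CL6G52 replicates 2 to 5, against 10.89, 10.94, 10.90, 10.91 and 10.94 in CL6G26. Its CL6G26 arrays spanned less than 0.1 log2 units and lay above all CL6G52 arrays, a difference of -0.88 ± 0.06 (SE, adjusted p = 1.32e-11), and replicate 1 read 9.25. Plagl1 at 1.23, Ndn at 0.64, Sgce at 0.45 and Ube3a at 0.31 were higher, and under the deposited scaling none of these 4 passed. Plagl1 also did not pass without any 1 of the 4 CL6G52 replicates, or without CL6G26 replicate 3 or 4. Of 13 cytosolic heat shock genes 4 passed higher, led by Hspa4l at 0.71 and Hspb1 at 0.56, but 0 did under the deposited scaling in limma (2 at an unadjusted p under 0.05), where the mitochondrial chaperonin Hspd1 stood at -0.02 in place of 0.19. Of 12 neural progenitor genes 3 passed higher, Stmn2 at 0.90 the furthest, and 3 lower, Nefl among them; under the deposited scaling 1 passed in each direction, and with all 5 CL6G52 replicates 2 did. Of the 12 differences 6 were positive and 6 negative. The summed linear signal of neural markers was 2260 to 2302 in CL6G52 and 2416 to 2650 in CL6G26. This sum includes Nefl, which differed by -1.89, so its order is not read as that of the other neural markers. Sox1, Neurog1 and Neurog2 lay under the floor on all 9 arrays. The sum of trophoblast markers was 621 to 710 in CL6G52 and 964 to 1027 in CL6G26. Elf5, Tfap2c, Krt7, Tead4 and Tpbpa lay under the floor on all 9 arrays. Of 8 trophoblast genes measured 2 passed lower, Eomes and Krt18, both described above, and 0 higher. The sum of endoderm markers, 2546 to 2687 in CL6G52 and 2344 to 2792 in CL6G26, overlapped. The trophoblast sum includes Eomes, at -1.28, and Krt18, at -0.44, so its order is not read as that of the other trophoblast markers. No sum was taken without these genes or without Nefl, and the part of single genes in the sums was not tested. In limma 0 of 16 BMP genes passed (2 at an unadjusted p under 0.05), and 0 of 11 MHC genes (3 unadjusted). Each list not described here had at most 4 members that passed.

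The levels in the other strains are given beside those of both sublines, as description without a test. For the 74 genes called lower, the P19CL6 mean was nearer to CL6G26 in 62 and nearer to CL6G52 in 12; for the 66 called higher it was nearer to CL6G52 in 39 and to CL6G26 in 27. CL6G52 replicates 2 to 5 had the highest of 5 strain means for 43 genes and the lowest for 58, and CL6G26 the highest for 39 and the lowest for 50. The genes were called for a difference between these sublines, which by itself draws both toward the ends of the 5 means. No share over all genes was taken, so these counts are not read as a result. Frmd4a, at 6.93 in CL6G52, lay at 4.96 in CL6G26, 5.23 in CL6G36, 5.16 in CL6G45 and 5.32 in P19CL6. Prps2 and Pgm2 showed the same order of CL6G52 above all other strains. Irx5 and Ret were instead set apart by CL6G26: Ret, at 5.48 in CL6G52 and 7.04 in CL6G26, averaged 5.50 in CL6G36, 5.67 in CL6G45 and 5.35 in P19CL6. Plin2 and Cep41 were low in CL6G26 relative to all 4 other strains. Foxa2, at 4.96 in CL6G52 and 7.02 in CL6G26, was 4.91 in CL6G36, 5.52 in CL6G45 and 6.90 in P19CL6, and Fgf8 and Axin2 had the same split, with CL6G26 beside P19CL6.

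The 2 genes Adarb1 and Cyba, outside the rule for named genes, were chosen after their values were seen. Adarb1, an adenosine deaminase that edits RNA, read 8.89, 8.29, 8.58 and 8.33 in CL6G52 replicates 2 to 5, against 4.65, 4.63, 4.68, 4.98 and 4.02 in CL6G26, a difference of 3.93 ± 0.21 (SE, adjusted p = 7.53e-13). It was the largest positive difference of all genes tested. It averaged 4.27 in CL6G36, 4.42 in CL6G45 and 4.45 in P19CL6, and replicate 1 of CL6G52 read 4.75, all near the floor, so the 4 arrays of CL6G52 stood alone. A MOE430B probe set of Adarb1 was also higher in CL6G52 (adjusted p = 1.17e-08), but its mean signal over the arrays, 2.71, lies under the floor, so no fold is given; with replicate 1 added the MOE430A difference was 3.18 (adjusted p = 3.18e-05). Cyba, a subunit of the NADPH oxidase, read 0.47, 2.78, 0.54 and 0.36 in CL6G52 replicates 2 to 5, against 4.06, 4.44, 4.95, 4.08 and 4.61 in CL6G26. All but 1 of these 9 values lie under the floor, so no fold is given, while replicate 1 read 7.38, and the P19CL6 and CL6G45 means were 7.19 and 7.08.

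**Figure D5:**
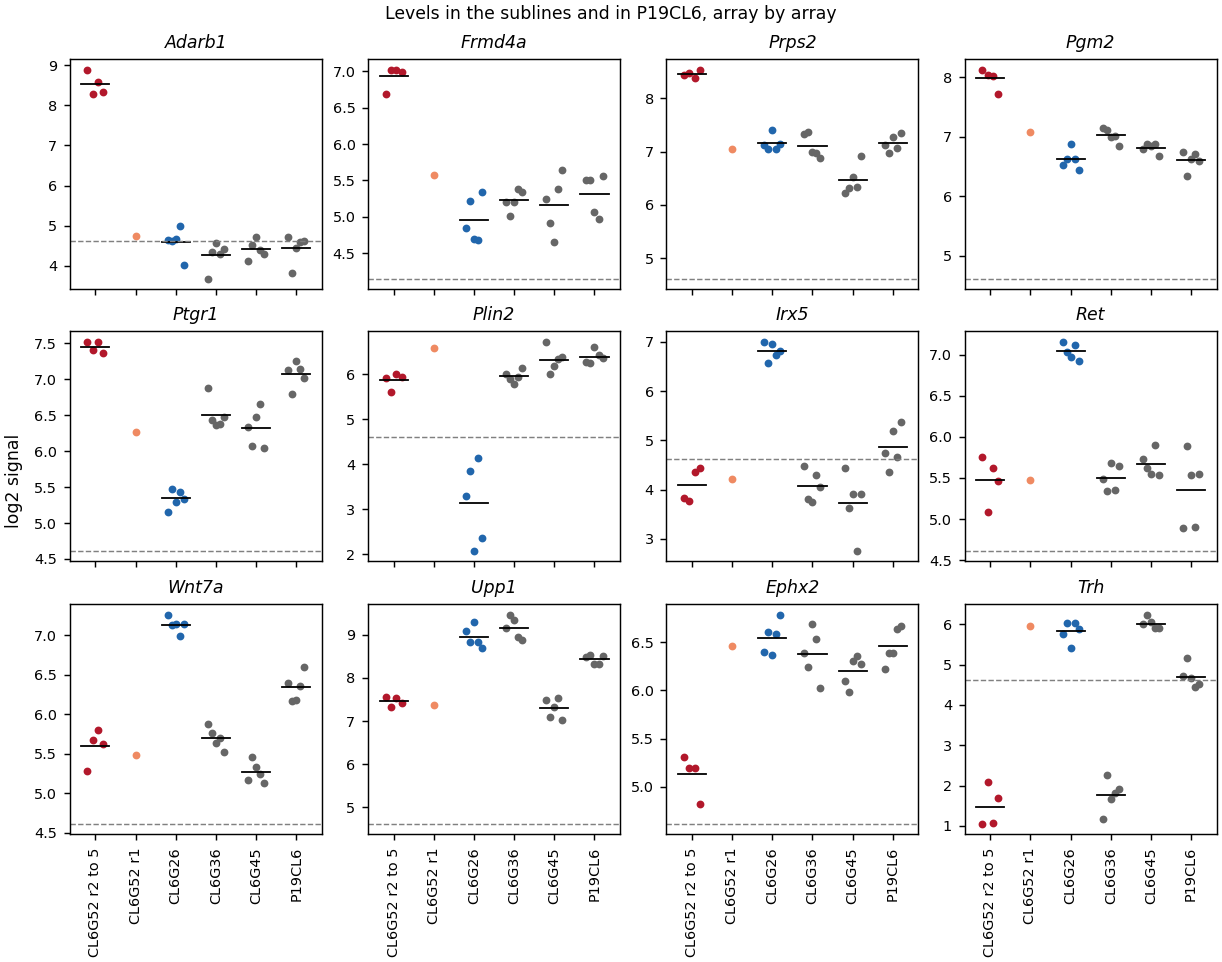
Log2 signals of 12 genes in CL6G52 replicates 2 to 5 (red), CL6G52 replicate 1 (orange), CL6G26 (blue), CL6G36, CL6G45 and P19CL6 (grey), with 1 point per array, black lines at the means and the floor dashed. CL6G52 replicates 2 to 5 stand alone for Adarb1, Frmd4a, Prps2, Pgm2 and Ephx2, and CL6G26 for Plin2, Irx5 and Ret. Replicate 1 lies away from its sister arrays for several genes, Adarb1, Trh, Prps2, Pgm2 and Ptgr1 among them.

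The position of CL6G52 replicate 1 differed between genes. It was nearer to CL6G52 replicates 2 to 5 than to CL6G26 for 68 of the 140 called genes and nearer to CL6G26 for 72. It was nearer to CL6G45 than to CL6G52 replicates 2 to 5 for 106, which restates the choice to leave it out. The genes were called without replicate 1, and no share over all genes was taken. The counts by list below rest on this replicate alone and describe it only. By list, it was nearer to CL6G52 for 5 of the 8 streak genes and 4 of the 5 Nodal genes other than Fst that passed lower, and nearer to CL6G26 for 4 of 5 epithelial, 6 of 8 muscle, 11 of 12 sterol, 8 of 8 ATF4 and CHOP and 9 of 9 p53 genes. What set replicate 1 apart was not tested.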

How the data were processed

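Total RNA of undifferentiated cells was hybridised to MOE430A and MOE430B arrays. The deposited intensities are probe set signals computed by the authors with the GCOS software, per the submitters' processing notes; no source used here states how they were scaled, and signal over background and the number of arrays limit the precision. The 64 control probe sets of each array type were removed, signals below 1 were set to 1, and each type was quantile normalized over its 30 arrays and put on the log2 scale. Probe sets above the floor on at least 4 of 24 arrays were tested, 15047 on MOE430A and 12171 on MOE430B. Each gene took its probe set with the highest mean signal, from MOE430A where both types measured it. Probe sets with names ending in x_at were used only where that array type had no other tested for the gene. Symbols came from the platform annotation.

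Group means of 5 strains (P19CL6, CL6G26, CL6G36, CL6G45 and CL6G52 replicates 2 to 5) were fitted with limma 3.58.1 in R 4.3.3, with a trend in the variance and 19 residual degrees of freedom, and p-values were adjusted by Benjamini-Hochberg within an array type. The fit was tested on simulated data with known changes. Where 1 subline lay under the floor, the fold is a bound against the floor.

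The replicates, gene lists and tests were chosen with earlier results of these data known. In each direction the genes named were the 10 largest differences above the floor on all 9 arrays and 5 above it in 1 subline only, then the 4 to 6 largest in each list. Other list members named, Wnt11, Adarb1 and Cyba were chosen after their values were seen. Replicate numbers were not used to pair the samples in the main fit. The alternatives were 21 planned and 1 added after seeing the data, and covered the samples fitted, scaling, offset, filter, probe set rule, variance, a replicate block and leaving out each replicate.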

Additional observations from a re-analysis of the deposited data

Results flagged for a closer look

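In 13 of 294 groups checked, over 147 genes named, 1 array stood apart from the others of its group by Dixon's criterion, which chance meets in about 1 of 20 groups. In CL6G52 replicates 2 to 5, replicate 2 was low for Frmd4a at 6.69, against 6.99 to 7.03 in the other 3, and for Amot at 8.06, and high for Plk2 at 7.16. Replicate 3 was low for Foxa2 at 4.74, against 5.0 to 5.04 in the others, and for Shmt2 at 8.27. Replicate 4 was high for Fgfr2 at 6.51, against 5.66 to 5.74, and low for Cnn1 at 3.83, the only CL6G52 array under the floor for that gene. In CL6G26, replicate 2 was high for Cdh2 at 6.72, Bst2 at 7.65 and Sgce at 7.42, replicate 3 was high for Prps2 at 7.4 and low for Nefm at 6.12, and replicate 1 was high for Plk2 at 6.46. For Foxa2, Frmd4a, Plk2 and Prps2 these arrays stayed outside the range of the other subline.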

How the results depend on the processing

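The count of genes higher in CL6G52, 66, was 129 under the deposited scaling, 25 with an offset of 16 added to each signal and 36 with signals raised to the floor; the count lower, 74, was 33 and 40 under those last 2. Both of these shrink differences of dim genes by construction; the cause of the shift under the deposited scaling was not tested. Leaving out 1 replicate at a time gave 55 to 73 genes higher and 67 to 83 lower. Over 147 named genes and all alternatives, 2859 of 3229 comparisons kept the direction and the side of the threshold, 364 kept the direction and did not pass, 4 values of Fst and Snx7 moved, and 2 reversed: Msi1 was -0.0554 with the mean of its probe sets and Hspd1 -0.0166 under the deposited scaling. With P19 in the fit, 4 ATF4 and CHOP genes passed lower and 5 p53 genes higher, against 8 and 9 without it.

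With the replicate block, 64 genes were higher and 70 lower. Of the neural progenitor list, 1 gene passed higher and 3 lower with it. Same-numbered CL6G52 and CL6G26 samples correlated at -0.123 to 0.013 on MOE430A and -0.023 to 0.023 on MOE430B. On MOE430B the arrays hardly correlated even with the mean of the other arrays of their subline. These correlations therefore cannot decide whether same-numbered samples were handled together. Dim signal limits the size of the difference for all but 45 of the 140 called genes.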

Other observations

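Where a called gene had further tested probe sets, these mostly moved the same way. Of the 140 called genes 42 had 58 other tested probe sets, of which 51 differed in the same direction and 0 passed in the opposite direction in limma. Of 23 called genes measured on both array types, 17 differed in the same direction on the other type and 10 passed there, among them Nefl at -1.09, Prps2 at 1.79 and Sfrp1 at 1.44.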
